A study of Mus musculus with 2 samples.

Results

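The genes for chemokines, interleukins and their receptors were examined in the glandular stomach of mice labelled null or wild-type for Agr2. Members were chosen by gene symbol alone (CCL, CXCL, CX3C, CCR, CXCR and IL symbols followed by a number), which gave 129 genes on 180 probes, out of 16903 genes on the array. The stomachs came from mice aged 26 weeks, both female per the labels. One animal was labelled AGR2 null and the other AGR2 wild-type, and the sources used here give neither the way the allele was made nor the strain of either mouse. Agr2 is an endoplasmic reticulum protein that mucus-secreting epithelia need to make mucins. RNA of the emptied and rinsed glandular stomach was read on Illumina bead arrays, where each probe reports a transcript as a fluorescence intensity. Each group had 1 array, which leaves every difference without a replicate check or a test and limits how precise any value can be.

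Chemokines are small secreted proteins that steer leukocytes through receptors on the cells they attract. Epithelium, stroma and resident leukocytes of the gut secrete different sets of them, and so draw in neutrophils, lymphocytes or monocytes. Interleukins carry signals between leukocytes and from epithelium to leukocytes, mostly through receptors built of a specific chain and a shared chain. In mucosal tissue they are commonly grouped by response, with a neutrophil axis (Cxcl1, Il1b), a type 2 axis (Il33, Il4, Il13) and a type 17 axis (Il17a, Il22), beside the lymphoid chemokines that organise lymphoid tissue. Whether a difference reflects more cells of a type or more RNA per cell cannot be told apart in whole tissue.

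Checks of the labels came first. Agr2 itself read 3406 on the array labelled null and 972 on the array labelled wild-type, which goes against the labels. The sources used here do not say which part of the gene the allele changes or which part the probe reads. Xist read 1774 (null) and 186 (wild-type, not above background), and the Y-linked gene Eif2s3y read 134 (null, not above background) and 2096 (wild-type), although both mice are labelled female. Of the other Y-linked genes, Kdm5d read 119 (null, not above background) and 303 (wild-type), Ddx3y 2138 (null) and 5332 (wild-type), and Uty 245 (null) and 209.6 (wild-type). The arrays thus differed in Xist, Eif2s3y, Kdm5d and Ddx3y as well as in label. In every difference below, a sex difference, a genotype difference and an exchange of the labels cannot be told apart. The arrays are therefore named by their labels throughout, in short as null or wild-type beside a value. Each of 9 gastric epithelium markers was detected on both arrays, with summed signals of 194955 (null) and 376149 (wild-type). Of these, Atp4a and Atp4b of parietal cells, Gif and Muc5ac were lower (328-fold, 181-fold, 24.6-fold and 16.8-fold), Muc6 was 2.12-fold higher and the other 4 were within 2-fold. Those 4, Gkn1, Gkn2, Tff2 and Pgc, had signals from 38866 to 51972. The highest signals of any probe were 57194 (null) and 57640 (wild-type). So near the top of the scale a difference may not show, which was not tested. Markers of other tissues differed as well, and the cause was not tested. Summed probe signals on the arrays labelled null and wild-type were 5900 and 146809 for squamous epithelium (11 genes), 8033 and 48448 for pancreatic acini (11 genes), and 28870 and 111046 for smooth muscle (9 genes). Averaged over all probes, the signal was 925 on the array labelled null and 811 on the one labelled wild-type.

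Promoter windows of the genes with some of the largest differences are shown first, because the results turn on these genes. The windows run from 250 bases before to 50 after an annotated start (RefSeq, GRCm38.p6), 5′ to 3′ on the gene's strand. Il1rl1 encodes the receptor of Il33 and has a pair of annotated starts, the distal one at chr1:40429320-40429619 and the proximal one at chr1:40439379-40439678, both on the plus strand. Cxcl1, the main neutrophil chemokine of mice, is shown at chr5:90890995-90891294 (plus strand) and Il11, a cytokine of the Il6 family, at chr7:4778092-4778391 (minus strand), the one of its annotated starts whose window holds a motif. Capitals mark matches, on either strand, to the kappa B motif GGGANNTTCC, the AP-1 motif TGANTCA or the STAT motif TTCNNNGAA.
Il1rl1 distal start: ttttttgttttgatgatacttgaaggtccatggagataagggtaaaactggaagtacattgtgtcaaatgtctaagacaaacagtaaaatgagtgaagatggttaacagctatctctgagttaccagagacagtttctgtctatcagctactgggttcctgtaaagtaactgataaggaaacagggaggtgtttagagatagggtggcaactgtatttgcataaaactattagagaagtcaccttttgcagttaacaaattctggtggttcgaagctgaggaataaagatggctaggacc
Il1rl1 proximal start: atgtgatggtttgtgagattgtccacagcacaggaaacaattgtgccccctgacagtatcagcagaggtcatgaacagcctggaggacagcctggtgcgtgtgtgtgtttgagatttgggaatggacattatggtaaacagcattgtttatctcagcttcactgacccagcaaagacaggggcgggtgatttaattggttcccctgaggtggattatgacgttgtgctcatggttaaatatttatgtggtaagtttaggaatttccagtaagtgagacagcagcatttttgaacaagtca
Cxcl1: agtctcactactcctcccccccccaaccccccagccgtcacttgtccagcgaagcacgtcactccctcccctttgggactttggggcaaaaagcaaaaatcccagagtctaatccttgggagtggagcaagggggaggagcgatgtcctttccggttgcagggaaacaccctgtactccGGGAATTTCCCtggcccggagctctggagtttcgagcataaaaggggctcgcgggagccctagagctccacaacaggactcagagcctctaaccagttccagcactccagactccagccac
Il11: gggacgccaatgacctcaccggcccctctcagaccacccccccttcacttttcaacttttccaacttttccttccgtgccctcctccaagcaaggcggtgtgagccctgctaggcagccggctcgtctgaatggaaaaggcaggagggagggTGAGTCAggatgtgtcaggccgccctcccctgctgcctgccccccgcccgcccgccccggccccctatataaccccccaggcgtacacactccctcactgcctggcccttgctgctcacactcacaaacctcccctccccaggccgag

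Of the 129 members, 98 had a promoter in the RefSeq table. The kappa B letters were found in 9 of these 98 (9.18%), against 1.63% of all 27025 genes of the table. The 9 were Ccl1, Ccr3, Cxcl1, Cxcl2, Cxcl3, Cxcl10, Il6, Il16 and Il22ra1. In the Cxcl1 window the capitals are overlapping matches on the 2 strands, and the AP-1 match in the Il11 window lies upstream of its start. AP-1 letters were found in 20 members (20.4%, against 8.97% of all genes) and STAT letters in 13 (13.3%, against 9.55%). Of the members at least 2-fold higher on the array labelled null, 11 had a promoter in the table, and of those lower, 7. Kappa B letters were in 1 of the 11 (Cxcl1) and 0 of the 7. AP-1 letters were in 3 and 1 of them, and STAT letters in 2 and 1. Neither Il1rl1 window held any of the 3 motifs. These are matches of letters in short windows, and no binding was measured.

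Detection set what could be compared. A gene was detected on an array where its signal passed all but a share under 0.01 of 1314 background probes, which put the limit near a signal of 227 on the array labelled null and 200.4 on the array labelled wild-type, the 99th percentile of these probes. Detected somewhere were 54 of the 129 members (41.9%, against 55.3% of all genes). Both arrays detected 32 of them, the array labelled null alone 14, and the array labelled wild-type alone 8. The 14 were 10.9% of the members, against 4.23% of all genes. The 75 members detected on neither array had signals from 102 to 222 on the array labelled null and from 90.3 to 193 on the array labelled wild-type. For these genes a difference was not detectable at these signals. Most chemokine receptors belonged to this group, with 15 of 17 not above background on either array, against 13 of 34 chemokines and 24 of 40 interleukin receptor subunits.

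Differences are given on the log2 scale as the array labelled null minus the array labelled wild-type, after background correction and quantile normalization. Where a gene was not above background on an array, the difference is a bound on that scale ("at least"). Such a gene could be counted as past 2-fold only toward the array that detected it. Background correction enlarges the differences of genes with a dim array, so folds and bounds can exceed the ratio of the signals printed beside them. Where the fold of a member is over 1.5 times smaller without background correction, that value is given too. At least 2-fold higher on the array labelled null were 14 of the 54 detected members (25.9%), against 999 of all 9345 detected genes (10.7%). At least 2-fold lower were 9 members (16.7%), against 13.6% of all detected genes. In the authors' own scaling 13 of the 54 members were higher and 5 lower, against 8.06% and 8.20% of all detected genes. The median over detected members was 0.08, and over all detected genes it was 0.

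**Figure D1:**
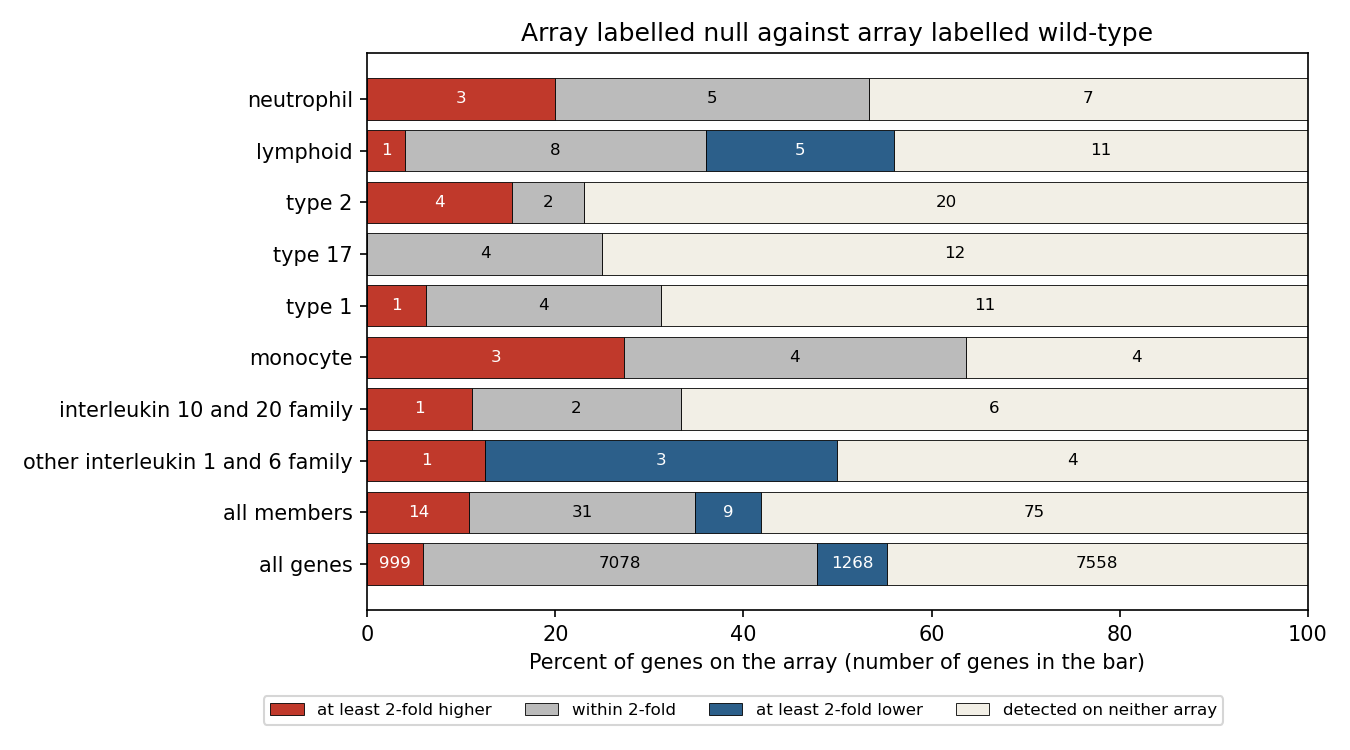
Genes on the array by group, as a percentage of the group (x axis), with the number of genes written in each bar. Colours give genes at least 2-fold higher, within 2-fold or at least 2-fold lower on the array labelled null than on the array labelled wild-type, and genes detected on neither array. The neutrophil, type 2 and monocyte groups had 3, 4 and 3 genes higher and none lower, the lymphoid group 1 higher and 5 lower, and the type 17 group none past 2-fold.

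In the type 2 axis, the alarmin Il33 and its receptor Il1rl1 were both higher on the array labelled null, while the classical type 2 cytokines were not above background. Il1rl1, which encodes ST2 on mast cells, innate lymphoid cells and type 2 T cells, read 3712 on the array labelled null and 247 on the array labelled wild-type. That is 21.9-fold higher, a log2 difference of 4.45 and the largest among the 32 members detected on both arrays, with the lower signal close to background. A second Il1rl1 probe read 119 (null) and 129 (wild-type), not above background on either array, and averaging both probes gave 2.10. Without background correction the difference by the brighter probe was 3.67. Il33, which epithelium and stroma release on injury, read 11165 on the array labelled null and 3859 on the array labelled wild-type, 2.58-fold higher. This difference hardly moved with the processing, from 1.28 to 1.39 on the log2 scale.

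The receptor chains for Il4 and Il13 were higher as well. Il13ra1, which binds Il13, had signals of 1335 on the array labelled null and 534 on the array labelled wild-type, 2.30-fold higher. Il4ra, the chain that Il4 and Il13 share, had 428 (null) and 204 (wild-type), 2.71-fold higher, with the array labelled wild-type barely above background. Without background correction, and in the authors' table, the Il4ra difference was under 2-fold (0.84 at the lowest). The eosinophil chemokine Ccl11 gave opposite answers by its 2 detected probes, 806 (null) and 621 (wild-type) by the brighter (0.10), and 287 (null) and 386 (wild-type) by the dimmer (-1.06). Il3ra, a receptor chain of mast cells and basophils, read 203 (null, not above background) and 208 (wild-type), at least 1.10-fold lower.

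The other 20 of the 26 type 2 genes were not above background on either array. Among them were the cytokines Il4 (signals of 120 on the array labelled null and 99.9 on the array labelled wild-type), Il5 (139 null and 133 wild-type), Il13 (204 null and 181 wild-type), Il9 (164 null and 160 wild-type) and the tuft cell product Il25 (127 null and 108 wild-type). The type 2 chemokines Ccl17, Ccl22, Ccl24 and Ccl26 and the receptors Ccr3, Ccr4 and Ccr8 were in the same position. So were Ccl1, Il3, the chains Il5ra, Il9r, Il13ra2, Il17rb and Il31ra, and the enzyme Il4i1. In all, 4 of the 6 detected genes were at least 2-fold higher, against 10.7% of all detected genes. None was lower, against 13.6% of all detected genes.

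Among 12 genes listed as linked to type 2 responses, 8 were detected, 4 of them higher and 3 lower (10.7% and 13.6% of all detected genes). The chitinase-like gene Chil3 read 10036 on the array labelled null and 140 (not above background) on the array labelled wild-type, at least 97.9-fold higher on the normalized scale, and Chil4 read 13656 (null) and 509 (wild-type), 28.1-fold higher. Clca1, a secreted protein of mucous cells, read 39177 (null) and 1322 (wild-type), 30.0-fold higher. These genes have close relatives, so their values are uncertain. The mucosal mast cell protease Mcpt1 was 3.94-fold higher, with 1491 (null) and 392.3 (wild-type). The mucin Muc5ac, also counted above as a gastric epithelium marker, was 16.8-fold lower, with 2670 (null) and 39881 (wild-type). Retnla and Arg1 were 4.07-fold and 2.34-fold lower. Markers of cell types known to carry Il1rl1 were counted beside it. None of 5 eosinophil markers was above background on either array. Of 8 detected mast cell markers 2 were higher and 5 lower (10.7% and 13.6% of all detected genes). Summed mast cell signals over 9 genes were 4686 on the array labelled null and 8400 on the array labelled wild-type. Of these sums Hdc alone made up 850 (null) and 4657 (wild-type). The part of any of these cells in the Il1rl1 signal was not tested.

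The neutrophil axis was led by Cxcl1 and Il1b. Cxcl1, whose promoter is shown above, read 1321 on the array labelled null and 155 (not above background) on the array labelled wild-type, at least 11.3-fold higher (log2 3.50, and 2.50 without background correction). Il1b, the main secreted agonist of the interleukin 1 receptor, read 1333 (null) and 196 (wild-type), at least 11.4-fold higher (log2 3.52, and 2.51 without background correction), with the array labelled wild-type just under its detection limit. Il1rn, which encodes the antagonist of the same receptor, was higher too, with 1099 on the array labelled null and 342 on the array labelled wild-type, or 3.40-fold. It had 2 further probes, which were not above background on either array, and the mean over its probes gave 0.61.

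Another 3 ligands crossed the detection limit on the array labelled null alone, with bounds under 2-fold. The chemokine Cxcl2 had 265 (null) and 139 (wild-type), with a bound of 0.41. Il6, an inducer of acute-phase genes, had 279 (null) and 125 (wild-type), with a bound of 0.55, and Il1a, which dying epithelial cells release, had 283 (null) and 149 (wild-type), with a bound of 0.59. With the measured values in place of bounds, their differences were 1.67, 2.04 and 1.64. These genes were near background even where they were detected, so the sizes of their differences are poorly determined.

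No receptor of the neutrophil axis was at least 2-fold higher. The neutrophil receptor Cxcr2 (IL8RB on the array) read 201 on the array labelled null and 111 on the array labelled wild-type by its brighter probe, and Il8ra read 155 (null) and 176 (wild-type), none above background. The signalling receptor Il1r1, its partner Il1rap and the Il6 receptor chain Il6ra were not above background either. The decoy receptor Il1r2 had 317 on the array labelled null and 393 on the array labelled wild-type (-0.86), and Il6st, the shared signalling chain of the Il6 family, had 476 (null) and 646 (wild-type), a log2 difference of -0.93. The chemokine Cxcl3 and the lung-associated Cxcl15 were not above background. In all, 3 of 8 detected genes of the axis were at least 2-fold higher, against 10.7% of all detected genes. None was lower, against 13.6% of all detected genes. Of the 8, 5 were detected on the array labelled null alone and so could not be counted as lower. Of the 3 detected on both arrays, Il1rn alone was at least 2-fold higher.

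Neutrophil markers were higher on the same array as these ligands. Of 13 markers on the array 8 were detected, 4 of them on the array labelled null alone. At least 2-fold higher were 6 (10.7% of all detected genes), and none was lower (13.6% of all). Summed signals were 34605 on the array labelled null and 4394 on the array labelled wild-type. The granule genes Mpo, Camp and Mmp8 were not above background on either array. Several of the markers, among them Lcn2 and Ltf, are also made by epithelium. The part of neutrophils in the signals of Cxcl1 and Il1b was not tested.

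**Figure D2:**
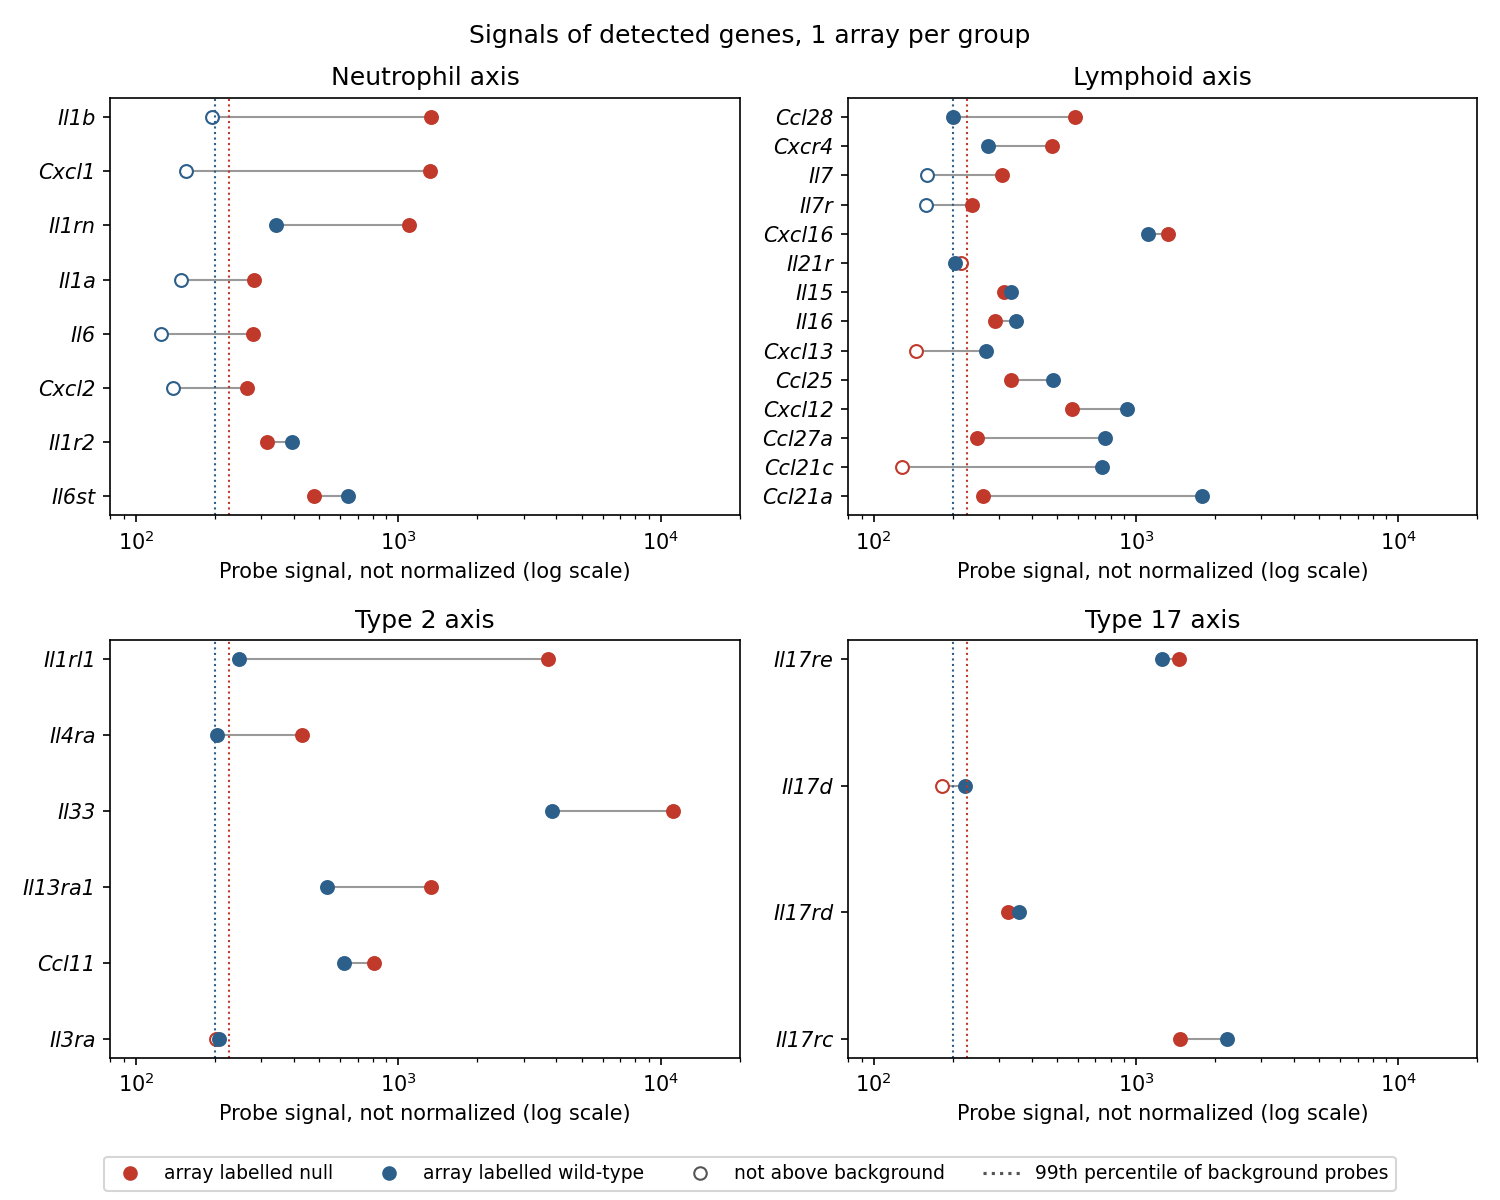
Probe signals, not normalized (x axis, log scale), of each detected gene of the neutrophil, lymphoid, type 2 and type 17 axes, by the brightest probe of each gene. Each point is 1 array, open where the signal was not above background, and dotted lines give each array's 99th percentile over background probes. Il1b, Cxcl1 and Il1rl1 stand near or below that line on the array labelled wild-type, and Ccl21a, Ccl21c and Ccl27a do so on the array labelled null.

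In the lymphoid axis, 5 of 14 detected genes were at least 2-fold lower on the array labelled null, against 13.6% of all detected genes. Higher was 1 gene, against 10.7% of all detected genes. The 5 were the chemokines Ccl21a, Ccl21c, Ccl27a, Cxcl12 and Ccl25, and the higher one was Ccl28. Under the authors' scaling, 3 genes of the axis stayed at least 2-fold lower, against 8.20% of all detected genes. Ccl21a, which guides naive T cells and dendritic cells to lymph nodes through Ccr7, read 261 on the array labelled null and 1790 on the array labelled wild-type, 14.8-fold lower (log2 -3.88, and -3.02 without background correction). Ccl21c read 128 (null, not above background) and 740 (wild-type), at least 7.44-fold lower (log2 -2.90, and -1.96 without background correction). Ccl21 copies are nearly identical in sequence, so these 2 probes may read the same transcripts. Ccl27a, which draws T cells to skin epithelium, read 248 (null) and 763 (wild-type) by its brighter probe, 6.45-fold lower (log2 -2.69, and -1.88 without background correction). The other probe read 191 (null, not above background) and 248 (wild-type).

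Smaller differences in the same direction were found for the stromal chemokine Cxcl12 and the gut-homing chemokine Ccl25. Cxcl12 had 5 probes, and the brightest read 570 on the array labelled null and 921 on the array labelled wild-type, 2.27-fold lower. A dimmer probe read 184 (null, not above background) and 214 (wild-type), and the other 3 were not above background on either array. Ccl25 read 333 (null) and 483 (wild-type), 2.22-fold lower. Both were under 2-fold without background correction, in the authors' table and with the mean over probes, with differences as small as -0.52 for Cxcl12 and -0.72 for Ccl25. The B cell follicle chemokine Cxcl13 read 145 (null, not above background) and 269 (wild-type), at least 1.83-fold lower.

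Ccl28, an epithelial chemokine known for attracting plasma cells that make immunoglobulin A, read 585 on the array labelled null and 201 on the array labelled wild-type. It was 4.25-fold higher (log2 2.09, and 1.31 without background correction), with the lower signal on the detection limit. Plasma cell markers were also higher, with 3 of 3 detected genes past 2-fold (10.7% of all detected genes). Their summed signals over 5 genes were 2892 on the array labelled null and 966 on the array labelled wild-type. The part of plasma cells in the Ccl28 signal was not tested. Il7, a survival factor of lymphocytes, had 308 (null) and 159 (wild-type), at least 1.74-fold higher, and its receptor Il7r had 236 (null) and 158 (wild-type), with a bound of 0.10. Cxcr4, the receptor of Cxcl12, had 480 (null) and 272 (wild-type), a log2 difference of 0.84. Cxcl16, a chemokine held on the cell surface, had 1321 (null) and 1112 (wild-type), which after normalization was level (-0.01).

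Lymphocyte genes were scarce on both arrays. Ccr7 and its other ligand Ccl19, Cxcr5, Cxcr6, Ccr9, Ackr3, Il21 and the receptor chains Il2ra, Il2rb, Il2rg and Il15ra were not above background on either array, and neither was any of 7 B cell markers. Of 10 T cell markers Cd3e alone was detected, with 238 on the array labelled null and 243 on the array labelled wild-type. The lymphatic endothelial receptor Lyve1 had 272 (null) and 680 (wild-type) and was lower (-2.24), in the same direction as Ccl21a, which lymphatic vessels are known to make. Of the 6 lymph node stroma and lymphatic markers 3 were detected, none at least 2-fold higher and Lyve1 lower (10.7% and 13.6% of all detected genes). Also detected were Pdpn (1412 null and 1327 wild-type, -0.19) and Madcam1 (264 null and 181 wild-type, not above background, bound 0.41). Flt4, Glycam1 and Prox1 were not above background on either array. Summed signals of the 6 markers were 2420 on the array labelled null and 2596 on the array labelled wild-type. The part of lymphatic vessels in the Ccl21a signal was not tested. The lymphocyte cytokines Il15 (313 null and 335 wild-type, -0.55) and Il16 (290 null and 348 wild-type, -0.80) were within 2-fold, and so was Il21r, which read 214 (null, not above background) and 204 (wild-type).

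No gene of the type 17 axis passed 2-fold. None of the ligands Il17a (166 on the array labelled null and 129 on the array labelled wild-type), Il17c (156 null and 109 wild-type), Il17f (121 null and 129 wild-type), Il22 (113 null and 106 wild-type) and Il23a (160 null and 124 wild-type) was above background, nor were Il17b, Ccl20 and its receptor Ccr6, and the receptor genes Il17ra, Il22ra1, Il22ra2 and Il23r. Detected were the receptor chains Il17rc, Il17re and Il17rd and the ligand Il17d. Il17rc, a chain of the receptor for Il17a and Il17f, read 1470 (null) and 2223 (wild-type) by its brightest probe (-0.92), and its other 2 probes gave -0.88 and -1.14. Il17re, the receptor chain for Il17c, read 1464 (null) and 1261 (wild-type), a log2 difference of -0.05, while a second probe read 1051 (null) and 1418 (wild-type), a log2 difference of -0.79.

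Il17rd, a relative of these receptors, read 326 on the array labelled null and 358 on the array labelled wild-type (-0.60), and a dimmer probe went the other way, with 251 (null) and 186 (wild-type, not above background). Il17d read 182 (null, not above background) and 223 (wild-type), at least 1.28-fold lower. Genes that are commonly used as type 17 targets were mostly higher on the array labelled null. Of 11 detected, 9 passed 2-fold upward, against 10.7% of all detected genes. Only 1 passed it downward, against 13.6%. For 4 of the 11, only the array labelled null gave a signal above background, so a 2-fold drop could not be scored. The calcium-binding protein S100a8 was 67.4-fold higher (10127 null and 240 wild-type), the antimicrobial lectin Reg3g at least 38.3-fold (4170 null and 173 wild-type), the collagenase Mmp13 35.0-fold (4099 null and 207 wild-type) and the immunoglobulin transporter Pigr 30.5-fold (21723 null and 714 wild-type). The defensin Defb4 was at least 12.7-fold lower (127 null and 1219 wild-type). Such genes respond to other signals as well, and S100a8, S100a9 and Lcn2 are also neutrophil markers. The source of these signals was not tested.

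**Figure D3:**
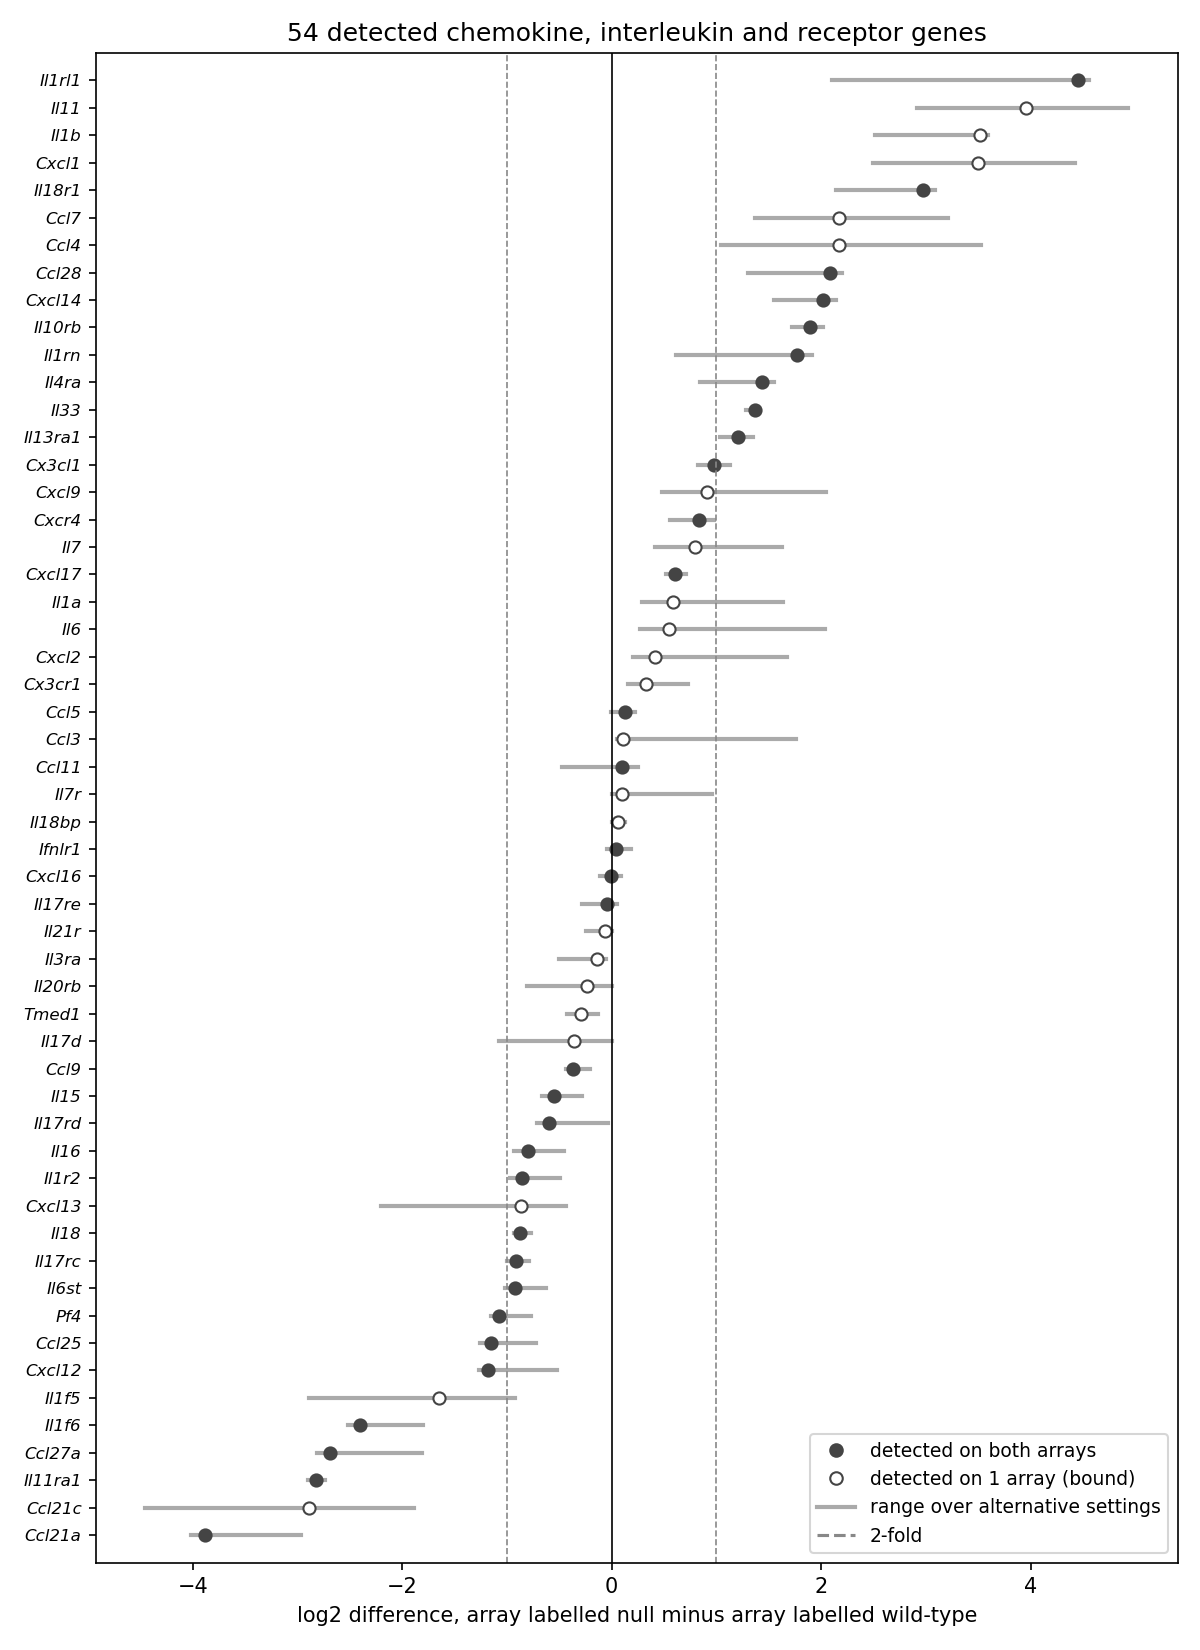
log2 difference of the 54 detected genes, array labelled null minus array labelled wild-type (x axis), by the brightest probe of each gene. Filled points are genes detected on both arrays, open points are bounds for genes detected on 1 array, grey lines give the range over the alternative settings, and dashed lines mark 2-fold. Il1rl1, Il11, Il1b and Cxcl1 lie highest and Ccl21a, Ccl21c, Il11ra1 and Ccl27a lowest. The lines of Il33, Il13ra1, Il10rb and Il11ra1 are short and stay past 2-fold.

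Outside the 4 axes, Il11 and its receptor moved in opposite directions. Il11, which stroma and gastric epithelium make on injury, read 1768 on the array labelled null and 153 (not above background) on the array labelled wild-type, at least 15.5-fold higher (log2 3.95, and 2.92 without background correction). Il11ra1, its specific receptor chain, read 2490 (null) and 14597 (wild-type), 7.10-fold lower, with the alternative settings between -2.90 and -2.74. Il6st, the chain that completes this receptor, was within 2-fold (-0.93).

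Monocyte and mucosal chemokines were mostly higher or level. Ccl4 had 608 (null) and 133 (wild-type, not above background), and the monocyte chemokine Ccl7 had 608 (null) and 149 (wild-type, not above background), at least 4.49-fold higher in either case. Without background correction the bound was 1.36 on the log2 scale for both, and with the mean over its probes it was 1.05 for Ccl4. The brighter probe of Ccl4 gave this value, and its other probe was not above background on either array (223 null and 174 wild-type). Cxcl14, an epithelial chemokine, was 4.04-fold higher, with 1794 (null) and 447 (wild-type) by the brighter probe and 483 (null) and 249 (wild-type) by the other. The membrane-bound chemokine Cx3cl1 had 1142 (null) and 523 (wild-type), a log2 difference of 0.98, its receptor Cx3cr1 had 256 (null) and 179 (wild-type, not above background), Ccl3 had 237 (null) and 113 (wild-type, not above background, bound 0.11), and Ccl9 was near level at 802 (null) and 809 (wild-type). Ccl2, Ccl6, Ccr1 and Ccr2 were not above background. Of 11 macrophage and dendritic cell markers 8 were detected, 1 higher and 3 lower (10.7% and 13.6% of all detected genes). Their summed signals were 6253 on the array labelled null and 4603 on the array labelled wild-type. Of these sums the single higher marker, Cd14, made up 3028 (null) and 520 (wild-type). The part of these cells in the chemokine signals was not tested.

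Cxcl17, a chemokine of mucosal surfaces, read 2100 on the array labelled null and 1186 on the array labelled wild-type (0.60). Pf4, the platelet chemokine, read 527 (null) and 786 (wild-type), 2.10-fold lower, and was under 2-fold in 3 alternative settings. Tmed1, a trafficking protein listed under an interleukin receptor-like symbol, read 227 (null, not above background) and 219 (wild-type). These values show no common direction among the genes outside the lists.

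Among the receptor chains outside the 4 axes, Il10rb, Il18r1 and Il11ra1 were past 2-fold. Il10rb, the common chain of the receptors for Il10, Il22 and lambda interferons, read 2641 on the array labelled null and 662 on the array labelled wild-type, 3.72-fold higher (between 1.72 and 2.02 on the log2 scale over the alternative settings). Its partner for lambda interferons, Ifnlr1, was level (813 null and 650 wild-type, 0.04), and its partners Il10ra and Il22ra1 were not above background. Il20rb read 191 (null, not above background) and 215 (wild-type), and Il10, Il19, Il20, Il24 and Il20ra were not above background. Il18r1, the binding chain for Il18, read 1132 (null) and 217 (wild-type), 7.87-fold higher (log2 2.98, and 2.14 without background correction), while Il18 itself, an interleukin that epithelium stores, read 2692 (null) and 4037 (wild-type), a log2 difference of -0.88. The interferon-induced chemokine Cxcl9 had 324 (null) and 145 (wild-type, not above background), at least 1.88-fold higher, and its relatives Cxcl10 and Cxcl11 and their receptor Cxcr3 were not above background. The same held for Il18rap, Il12a, Il12b, Il12rb1, Il12rb2, Il27 and Il27ra of the type 1 group. Ccl5 had 261 (null) and 216 (wild-type), a log2 difference of 0.13, and Il18bp, the decoy receptor of Il18, had 233 (null) and 199 (wild-type, not above background), both close to level.

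The epithelial interleukin 1 relatives Il1f6 and Il1f5 were lower. Il1f6, an agonist of the receptor Il1rl2, read 337 on the array labelled null and 1031 on the array labelled wild-type, 5.28-fold lower. Il1f5, its antagonist, read 152 (null, not above background) and 379 (wild-type), at least 3.15-fold lower (log2 -1.65, and -0.97 without background correction). Squamous epithelium is a known source of both, and 9 of 10 detected squamous markers were lower on the same array (13.6% of all detected genes). The part of squamous tissue in these signals was not tested. Il1rl2, Il1f9, Il1f10 and Il1rapl2 were not above background.

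Position on the chromosome was shared by several of the genes with the largest differences. Il1rl1 and Il18r1 are direct neighbours on chromosome 1 (order of RefSeq, GRCm38.p6), in a run of 6 interleukin 1 family receptor genes. The others in this run were Il1r2, within 2-fold, and Il1r1, Il1rl2 and Il18rap, which were not above background. On the far side of the run Slc9a4 read 413 on the array labelled null and 199 (not above background) on the array labelled wild-type, a bound of 1.43, whereas Map4k4 on the near side was lower (-1.06).

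On chromosome 4, Il11ra1, Ccl27a, Ccl19 and Ccl21a follow each other among the genes of the array, and the 3 that were detected were between 6.45-fold and 14.8-fold lower. Detected genes near this run were not lower to that extent. Galt read 1052 on the array labelled null and 1082 on the array labelled wild-type (-0.36), and Vcp, the third gene on the other side, read 15193 (null) and 11758 (wild-type), a log2 difference of 0.20. The annotation places further copies in the same stretch, among them Il11ra2, Ccl27b and Ccl21b, and the sources used here do not say which copies each probe reads.

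**Figure D4:**
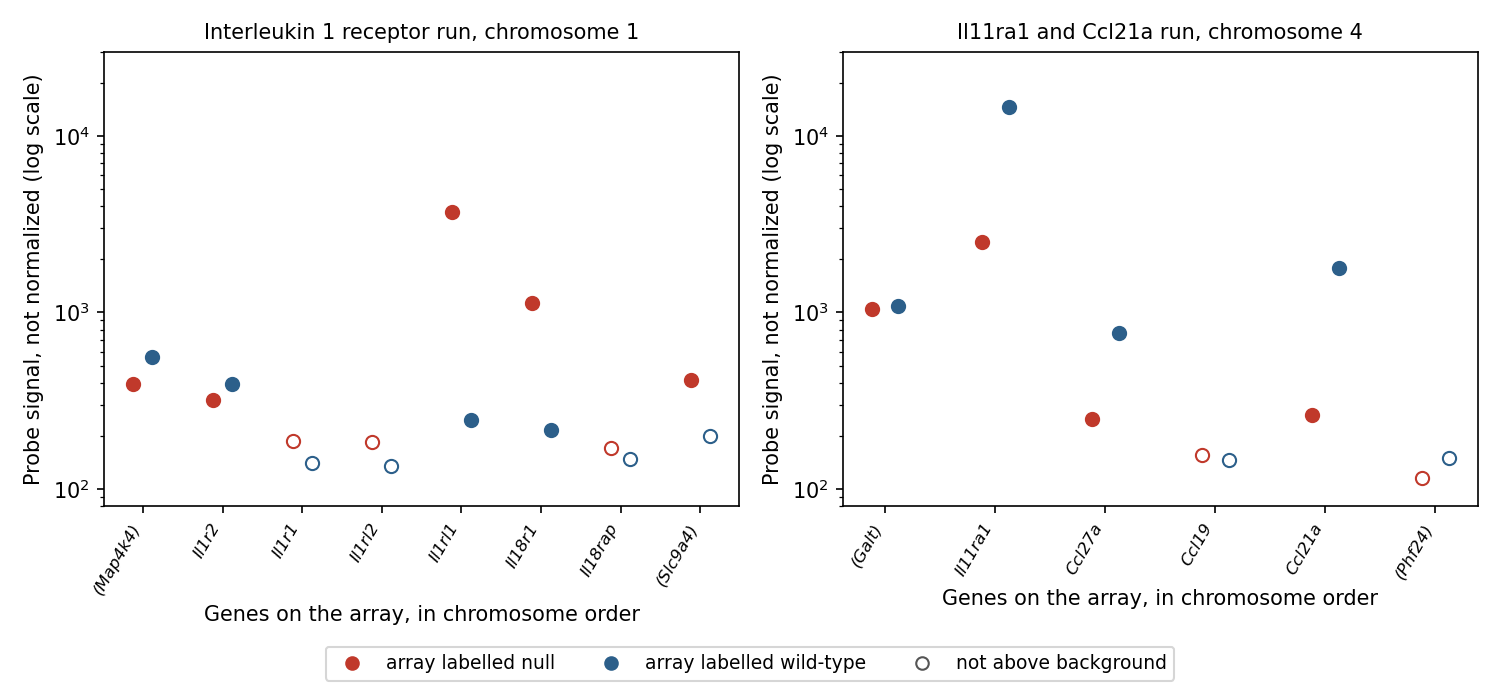
Probe signals, not normalized (y axis, log scale), of genes on the array in chromosome order, for the interleukin 1 receptor run of chromosome 1 and the run from Il11ra1 to Ccl21a of chromosome 4, with the nearest array gene on either side in brackets. Each point is 1 array, open where not above background. Il1rl1 and Il18r1 stand out on the array labelled null, and Il11ra1, Ccl27a and Ccl21a are lower there than on the array labelled wild-type, while the 2 arrays lie close together for Galt.

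Signalling genes outside the symbol rule were counted from lists. Of 29 transducers of cytokine receptors 26 were detected, 7 of them at least 2-fold higher (26.9%, against 10.7% of all genes) and 1 lower, with a median of 0.25. Nfkbiz, a cofactor that Il17 and interleukin 1 receptors induce, read 3368 on the array labelled null and 1108 on the array labelled wild-type, 2.70-fold higher. Socs3, a feedback inhibitor induced by the Il6 family, read 2341 (null) and 798 (wild-type), 2.60-fold higher. Irak4, a kinase of the interleukin 1 receptor pathway, read 397 (null) and 167 (wild-type, not above background), at least 2.54-fold higher. Cish, a feedback inhibitor downstream of Stat5, read 999 (null) and 2482 (wild-type) and was the single lower gene, by 3.34-fold.

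Of 19 colony-stimulating factor and other cytokine genes 8 were detected, 2 higher and 1 lower (10.7% and 13.6% of all detected genes). Osm, a cytokine of the Il6 family made by leukocytes, read 495 on the array labelled null and 138 (not above background) on the array labelled wild-type, at least 3.45-fold higher. Its receptor Osmr read 1587 (null) and 418 (wild-type), 3.87-fold higher, so that ligand and receptor were higher together, unlike Il11 and Il11ra1. The macrophage receptor Csf1r was 2.08-fold lower. Of the lineage transcription factors of lymphocytes, Rora read 229 (null) and 339.5 (wild-type) and was 2.63-fold lower. The chemokine-like factor Cklf, with 889 (null) and 294 (wild-type), was 3.35-fold higher, and of the other chemokine genes outside the rule none but Pf4, which is a member under its older symbol, was past 2-fold.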

How the data were processed

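Total RNA of 2 glandular stomachs, 1 labelled null and 1 labelled wild-type, was biotin-labelled and read on Illumina MouseRef-8 v2 arrays, per the labels. The authors deposited linear intensity values for 25697 probes that are not normalized, and a second table holding the same intensity values times 1 factor per array (0.842 for the array labelled null and 0.960 for the array labelled wild-type), found from the values (largest relative deviation 4.95e-10, medians 158 null and 162 wild-type). That table is linear, without centring of genes. The sources used here do not say how beads were summarised or whether background was subtracted.

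The signals that were not normalized were corrected with the normexp model of limma 3.58.1 (R 4.3.3), with parameters from 1314 olfactory and vomeronasal receptor probes and an offset of 16, quantile normalized and set to log2. The files hold no detection p-values, so these probes also gave detection (share under 0.01). Each gene was read by its brightest probe. For an array below background, the difference is a bound, taken against the lowest detected value of that array or the dim probe's own value if higher. Genes past 2-fold were counted, with no test. The steps were also run on simulated arrays. Known differences were set there only in genes with 1 probe and a signal well above background. That run therefore does not cover differences of genes near background or the choice among probes. Of the members' symbols 122 were current, 6 matched as synonyms and 1 (Il8ra) kept its name.

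Members and lists were chosen with earlier results of these data known. Named are each detected gene of the neutrophil, lymphoid, type 2 and type 17 axes (at most 12 per axis, with Il21r and Cxcl16 added after their values were seen), the 6 largest others per direction, genes whose probes disagree, and up to 4 genes past 2-fold of each list outside the symbol rule. All other members, flanking genes, markers and single genes behind small counts of a list were named after their values were seen. The closing section gives 9 alternatives. Some genes are not reported here.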

Additional observations from a re-analysis of the deposited data

How the results depend on the processing

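With 1 array per group no replicate could be left out. No paired analysis was possible because each group has 1 sample. The members at least 2-fold higher numbered 14, against 13 to 20 in the alternatives other than counting only genes detected on both arrays (9, all among the 14). The members at least 2-fold lower numbered 9, against 7 to 11 in the other settings and 5 both without background correction and in the authors' table, where Ccl25, Cxcl12, Il1f5 and Pf4 were under 2-fold. The neutrophil axis had 3 genes higher, 6 with a detection share under 0.05 or with measured values in place of bounds, and 1 over genes detected on both arrays. It had 1 gene lower after cyclic loess (Il6st) in place of none. The lymphoid axis had 1 gene higher, against 2 with a detection share under 0.05 or with measured values. It had 5 lower, against 3 without background correction, in the authors' table and with the mean over probes. The type 17 axis had 1 gene lower (Il17d) with measured values. The type 2 counts stayed within 1.5 times. Among all detected genes 999 were past 2-fold upward and 1268 downward. These counts became 629 and 858 without background correction, and 753 and 766 with the authors' scaling. Among the differences of single genes under an alternative, 403 stayed within 1.5-fold and 61 moved further, and none past 2-fold changed direction. Signals close to background limit the size of the larger folds.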

Other observations

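Runs of related genes were also found where neighbours differed in direction. On chromosome 2, Il1f6 and Il1f5 were lower while Il1rn, in the same run of 5 genes, was higher (-2.40, -1.65 at the bound, and 1.76). On chromosome 5, in the run of 5 genes from Pf4 to Cxcl2, Cxcl1 was at least 11.3-fold higher and Pf4 was 2.10-fold lower, with Cxcl3 and Cxcl15 not above background between them.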
